A study of Mus musculus with 12 samples.

Results

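Zscan4 is a family of near-identical mouse genes that mark the 2-cell stage of the embryo and a rare, passing state of cultured mouse embryonic stem cells (mESCs) called 2-cell-like. The members were taken as all table entries with the symbols Zscan4a, Zscan4b, Zscan4c, Zscan4d, Zscan4e and Zscan4f, which gave 6 genes of 23412 in the table. Each was described singly and as part of 1 sum over the family, because reads may be shared between copies.

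The series holds poly-A selected RNA-Seq of the male v6.5 mESC line, grown on gelatin in serum and LIF with no drug treatment named. It compares 4 genotypes with 3 biological replicates each, 12 libraries in all. HMGN1 and HMGN2 are small nucleosome-binding proteins, and the study asked how their loss alters gene expression in mESCs. WT mESCs carried no edit. In the Hmgn1-/- line both alleles of Hmgn1 had lost 1 bp (exon 3). In the Hmgn2-/- line both alleles of Hmgn2 had gained 1 bp (exon 4). Hmgn1-/-Hmgn2-/- mESCs (the double knockout) carried both edits and came from a second edit, of Hmgn1, in Hmgn2-/- cells. Every knockout line was grown from a single edited cell, so a knockout genotype is 1 clone and its libraries are cultures of that clone. The WT cells are not described as cloned. Genotype and clone cannot be told apart in any comparison below.

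Zscan4 proteins carry a SCAN domain, used for protein contacts, and C2H2 zinc fingers, used for DNA contacts. Zscan4c is known as the main member in mESCs and Zscan4d as the main member in 2-cell embryos. Zscan4c, Zscan4d and Zscan4f are known to encode the full-length protein, whereas Zscan4a, Zscan4b and Zscan4e encode shortened forms. In mESC culture only a small fraction of cells holds Zscan4 at a given time, and those cells also switch on other genes of early genome activation. Zscan4 is known for a role in telomere maintenance through recombination. The transcription factor DUX activates the family and other 2-cell genes, DPPA2 and DPPA4 act upstream of DUX, and several chromatin repressors hold the state back.

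All 6 members lie in 1 cluster on chromosome 7 (GRCm38, GENCODE M21). Zscan4a covers chr7:10794242-10799057 on the minus strand and is annotated as an unprocessed pseudogene. Zscan4b covers chr7:10900740-10905050 on the minus strand, and Zscan4c covers chr7:11005745-11010547 on the plus strand. Zscan4d covers chr7:11161374-11166159 on the minus strand and Zscan4e covers chr7:11306378-11310682, also on the minus strand. Zscan4f covers chr7:11397915-11402318 on the plus strand. GENCODE lists Zscan4b to Zscan4f as protein coding, whereas RefSeq lists Zscan4e as a pseudogene and Zscan4a as a transcribed pseudogene. The longest transcript of each member has 4 exons.

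The longest transcripts were 96.6% to 99.7% identical in pairs. The closest pairs were Zscan4b with Zscan4e, at 99.7%, and Zscan4c with Zscan4f, at 99.6%. Of all stretches of 150 bases in a transcript, 13.0% for Zscan4d and 23.2% for Zscan4a occurred unchanged in another member. The share was 54.0% for Zscan4c, 62.3% for Zscan4f, 65.8% for Zscan4b and 76.0% for Zscan4e. A read from most of Zscan4e could thus have come from another copy, and the value of a single member is uncertain where the counting split such reads. The family sum does not depend on how reads were split among the members.

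Promoters are shown because all 6 genes moved together. A promoter entry from RefSeq was at hand for 4 of the 6 members (Zscan4b, Zscan4c, Zscan4d and Zscan4f, GRCm38.p6). The lines give the 200 bases before the transcript start as RefSeq has it, 5′ to 3′ on the strand of the gene, with TATAAA and TGATTCAA in capitals. TATAAA is the core of a TATA box, and TGATTCAA is the first part of the site known for DUX.
Zscan4b, chr7:10905051-10905250, minus strand: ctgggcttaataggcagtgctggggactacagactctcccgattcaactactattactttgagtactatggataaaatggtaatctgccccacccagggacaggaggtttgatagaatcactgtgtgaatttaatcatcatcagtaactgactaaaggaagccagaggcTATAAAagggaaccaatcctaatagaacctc
Zscan4c, chr7:11005545-11005744, plus strand: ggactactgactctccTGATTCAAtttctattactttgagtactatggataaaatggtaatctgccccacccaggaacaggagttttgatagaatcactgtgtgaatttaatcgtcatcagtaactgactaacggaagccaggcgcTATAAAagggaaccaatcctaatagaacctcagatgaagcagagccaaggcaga
Zscan4d, chr7:11166149-11166348, minus strand: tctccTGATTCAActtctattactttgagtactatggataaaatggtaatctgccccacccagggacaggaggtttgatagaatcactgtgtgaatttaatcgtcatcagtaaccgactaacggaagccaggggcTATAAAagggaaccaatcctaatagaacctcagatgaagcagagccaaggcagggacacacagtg
Zscan4f, chr7:11397715-11397914, plus strand: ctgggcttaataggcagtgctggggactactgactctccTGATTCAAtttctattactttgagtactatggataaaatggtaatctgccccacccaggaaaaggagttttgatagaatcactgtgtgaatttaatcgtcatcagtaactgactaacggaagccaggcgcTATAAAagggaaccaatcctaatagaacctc

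Both strands of the 250 bases before each start were searched for these letters. TATAAA was present in 4 of 4 members and in 12.4% of all 32851 RefSeq windows of that length. It began 31 bases before the start in Zscan4b and Zscan4f, 54 bases before it in Zscan4c and 65 bases before it in Zscan4d. TGATTCAA was present in 3 of 4 members (Zscan4c, Zscan4d and Zscan4f) and in 0.539% of all windows. These are matches of letters in a window and show no binding. The promoter windows were 95.3% to 99.3% identical in pairs, so the members do not count as separate examples of a motif.

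The 12 libraries held 17337908 to 31448468 counts, and scaling factors (trimmed mean of M values, TMM) ran from 0.970 to 1.02. No pair of replicates agreed within sampling noise, so each library counted once. Hmgn2-/- replicate 3 stood apart from the other replicates of its group (chi-square per degree of freedom 19.5 and 34.3), and the family sum in comparisons of Hmgn2-/- is also given without it. Hmgn1 fell from 625 CPM in WT to 140 CPM in Hmgn1-/- and 20.9 CPM in the double knockout. Hmgn2 fell from 126 CPM to 53.0 CPM in Hmgn2-/- and 52.8 CPM in the double knockout. The mESC identity was checked on 10 pluripotency markers, of which 10 were detected in every genotype and 0 passed both limits in any comparison, a count near the share of all genes called. Below the fold limit, Klf4 had a log2 FC against WT of 0.93, 0.69 and 0.74 in Hmgn1-/-, Hmgn2-/- and the double knockout (edgeR adjusted p = 1.94e-06, 8.99e-04 and 5.70e-06), and Nanog had -0.32, -0.50 and -0.45 (edgeR adjusted p = 0.00140, 0.00152 and 1.95e-04). Esrrb had 0.47, 0.32 and 0.28 (edgeR adjusted p = 2.81e-05, 0.0124 and 0.00251), and Utf1 had 0.29, 0.27 and 0.21 (edgeR adjusted p = 0.00359, 0.0427 and 0.0186).

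The Zscan4 family was lower in every knockout than in WT, and every single knockout library was lower than every double knockout library. The family sum held 1219, 467 and 728 counts in WT replicates 1 to 3, which is 38.1, 26.4 and 25.3 CPM after TMM scaling. It held 53, 54 and 28 counts in Hmgn1-/-, or 2.03, 2.58 and 1.28 CPM. It held 61, 59 and 17 counts in Hmgn2-/-, or 2.34, 2.23 and 1.01 CPM. Every single knockout library was thus below every WT library, and the single knockouts overlapped each other. The double knockout held 357, 234 and 168 counts, or 11.4, 10.6 and 6.37 CPM, and all 3 values lay between the WT libraries and the single knockout libraries. In CPM, the library numbered 3 had the lowest family sum in each of the 4 genotypes. In bulk RNA, fewer cells with Zscan4 and less Zscan4 RNA per cell cannot be told apart.

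**Figure D1:**
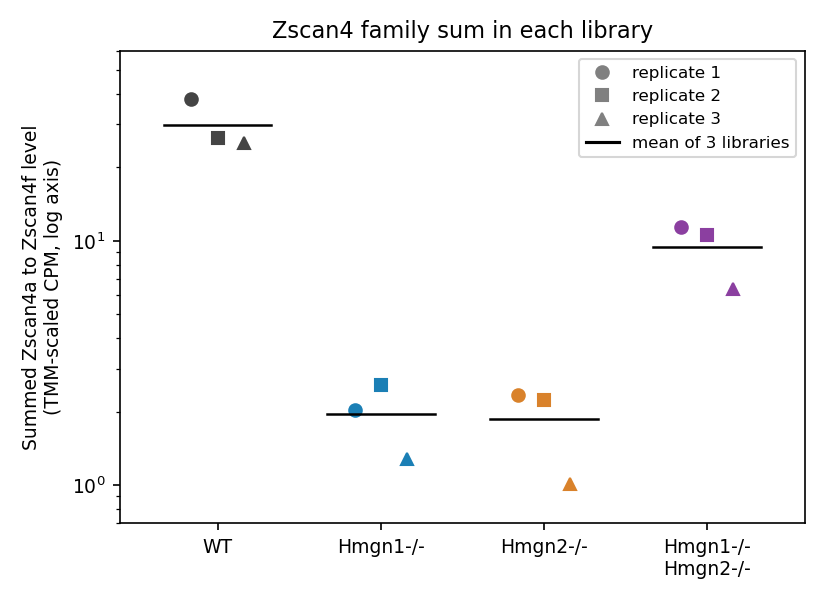
Summed level of Zscan4a to Zscan4f in each of the 12 libraries, in TMM-scaled CPM on a log axis, by genotype. Points are libraries, with the shape giving the replicate number, and lines are means of 3. WT libraries sit at 25.3 to 38.1 CPM, double knockout libraries at 6.37 to 11.4 CPM, and both single knockouts at 1.01 to 2.58 CPM.

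The mean family sum was 29.9 ± 7.11 CPM in WT (SD, n = 3), 1.96 ± 0.650 CPM in Hmgn1-/- (n = 3), 1.86 ± 0.739 CPM in Hmgn2-/- (n = 3) and 9.46 ± 2.70 CPM in the double knockout (n = 3). As a share of the WT mean these are 6.56%, 6.22% and 31.6%. Differences were tested with the quasi-likelihood test of edgeR on counts, and a call needed an adjusted p under 0.01 and a log2 FC of at least 1 in size. Against WT, the family sum had a log2 FC of -3.93 in Hmgn1-/- (SE 0.211, edgeR adjusted p = 2.66e-08). It had a log2 FC of -3.94 in Hmgn2-/- (SE 0.249, edgeR adjusted p = 3.62e-06), and without Hmgn2-/- replicate 3 the value was -3.71 (edgeR adjusted p = 4.45e-07). In the double knockout the log2 FC was -1.66 (SE 0.193, edgeR adjusted p = 2.44e-05). These are 15.3-fold, 15.3-fold and 3.17-fold lower levels. The 3 comparisons share the WT libraries.

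By size of log2 FC, the family sum stood at position 41 of 13912 tested entries in Hmgn1-/- against WT and at position 34 of 14042 in Hmgn2-/- against WT. In the double knockout against WT it stood at position 440 of 14123. An exact two-sided permutation test of the CPM of the sum gave p = 0.1 in each comparison with WT, which is the smallest p that 3 against 3 libraries can give.

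Each member on its own was lower past the threshold in all 3 comparisons with WT, 6 of 6 each time. In Hmgn1-/- against WT 5.08% of 13917 tested genes were lower past the threshold, in Hmgn2-/- 4.38% of 14047, and in the double knockout 5% of 14128. All 6 members also had no overlap between knockout and WT libraries in each comparison, where 21.3%, 19.2% and 21.7% of genes tested were lower without overlap. The 6 members passed the filter on low counts through their WT libraries in the single knockout comparisons. The count stayed 6 of 6 with no filter, in fits for which the share of all genes called was not counted. The log2 FC against WT ran from -4.40 to -3.32 in Hmgn1-/- (median -4.02), from -4.34 to -3.52 in Hmgn2-/- (median -3.95) and from -1.89 to -1.44 in the double knockout (median -1.58). The median over all genes tested was 0.00, 0.01 and 0.00.

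Zscan4c, the main mESC member, was at 8.47, 6.62 and 6.25 CPM in WT. It was at 0.384, 0.668 and 0.321 CPM in Hmgn1-/-, and at 0.537, 0.492 and 0.297 CPM in Hmgn2-/-. In the double knockout it was at 2.30, 1.72 and 1.67 CPM, between both sets without overlap. Its log2 FC against WT was -3.97 in Hmgn1-/- (SE 0.261), -3.94 in Hmgn2-/- (SE 0.254) and -1.89 in the double knockout (SE 0.191), the lowest edgeR adjusted p of the members in each of these comparisons (1.59e-07, 4.35e-06 and 7.33e-06).

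Zscan4d, the embryonic full-length member, was at 8.29, 5.32 and 5.42 CPM in WT. It fell to 0.537, 0.525 and 0.138 CPM in Hmgn1-/- and to 0.691, 0.189 and 0.297 CPM in Hmgn2-/-. The double knockout libraries were at 3.01, 2.49 and 1.02 CPM, between the WT and the single knockout libraries without overlap. The spread within a genotype was wider than for Zscan4c, with a coefficient of variation of 47.3% in the double knockout against 18.6%.

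Zscan4f, the other full-length member, was at 6.79, 3.79 and 3.68 CPM in WT. It was at 0.652, 0.430 and 0.321 CPM in Hmgn1-/-, and at 0.499, 0.530 and 0.119 CPM in Hmgn2-/-. The double knockout held 1.63, 2.17 and 1.56 CPM. With all libraries Zscan4f had the smallest fall of the 6 members in each comparison with WT. That order changed without Hmgn2-/- replicate 2 (log2 FC -3.78 against -3.575 for Zscan4d). It also changed without double knockout replicate 3 (-1.35 against -1.20 for Zscan4b). Zscan4f kept 9.84% of its WT mean in Hmgn1-/-, 8.05% in Hmgn2-/- and 37.6% in the double knockout, whereas Zscan4c kept 6.43%, 6.22% and 26.7%. The difference between members was not tested.

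Zscan4a, the annotated pseudogene, was at 8.57, 5.43 and 5.31 CPM in WT, a level like that of Zscan4d. It was at 0.192, 0.573 and 0.413 CPM in Hmgn1-/- and at 0.230, 0.530 and 0.119 CPM in Hmgn2-/-. The double knockout held 2.05, 2.21 and 1.33 CPM. Its log2 FC against WT was -4.07 in Hmgn1-/- (SE 0.326), -4.34 in Hmgn2-/- (SE 0.373) and -1.80 in the double knockout (SE 0.239), so the entry moved with the coding members. When 1 library was left out, the value in Hmgn2-/- ran from -5.08 to -4.06.

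Zscan4e, a shortened member, was at 4.41, 3.34 and 3.51 CPM in WT. It was at 0.230, 0.239 and 0.0458 CPM in Hmgn1-/- and at 0.307, 0.416 and 0.119 CPM in Hmgn2-/-, and the lowest of these is a single count. The double knockout held 1.76, 1.36 and 0.569 CPM, still above every single knockout library. With all libraries its fall in Hmgn1-/- was the largest of the 6 members, with a log2 FC of -4.40 (SE 0.360). Without Hmgn1-/- replicate 3 its log2 FC was -3.99, against -4.14 for Zscan4a and -4.075 for Zscan4b.

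Zscan4b, the member with the fewest reads, held 51, 34 and 32 counts in the WT libraries. It held 1, 3 and 1 counts in Hmgn1-/-, 2, 2 and 1 counts in Hmgn2-/-, and 21, 14 and 6 counts in the double knockout. Pooled over libraries, 5 counts in Hmgn1-/- against 117 in WT gave a 20.5-fold lower level (95% interval 8.55 to 64.4). The 5 counts in Hmgn2-/- gave a 20.7-fold lower level (95% interval 8.61 to 64.8). Both are exact intervals that cover counting error only. In the double knockout its log2 FC against WT was -1.55 (SE 0.374, edgeR adjusted p = 0.00654), and the call was lost without WT replicate 2 or without any 1 of the double knockout libraries (adjusted p 0.0124 to 0.0298). In counts per library, WT was highest, the double knockout next and the single knockouts lowest, with no overlap between these 3 levels.

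**Figure D2:**
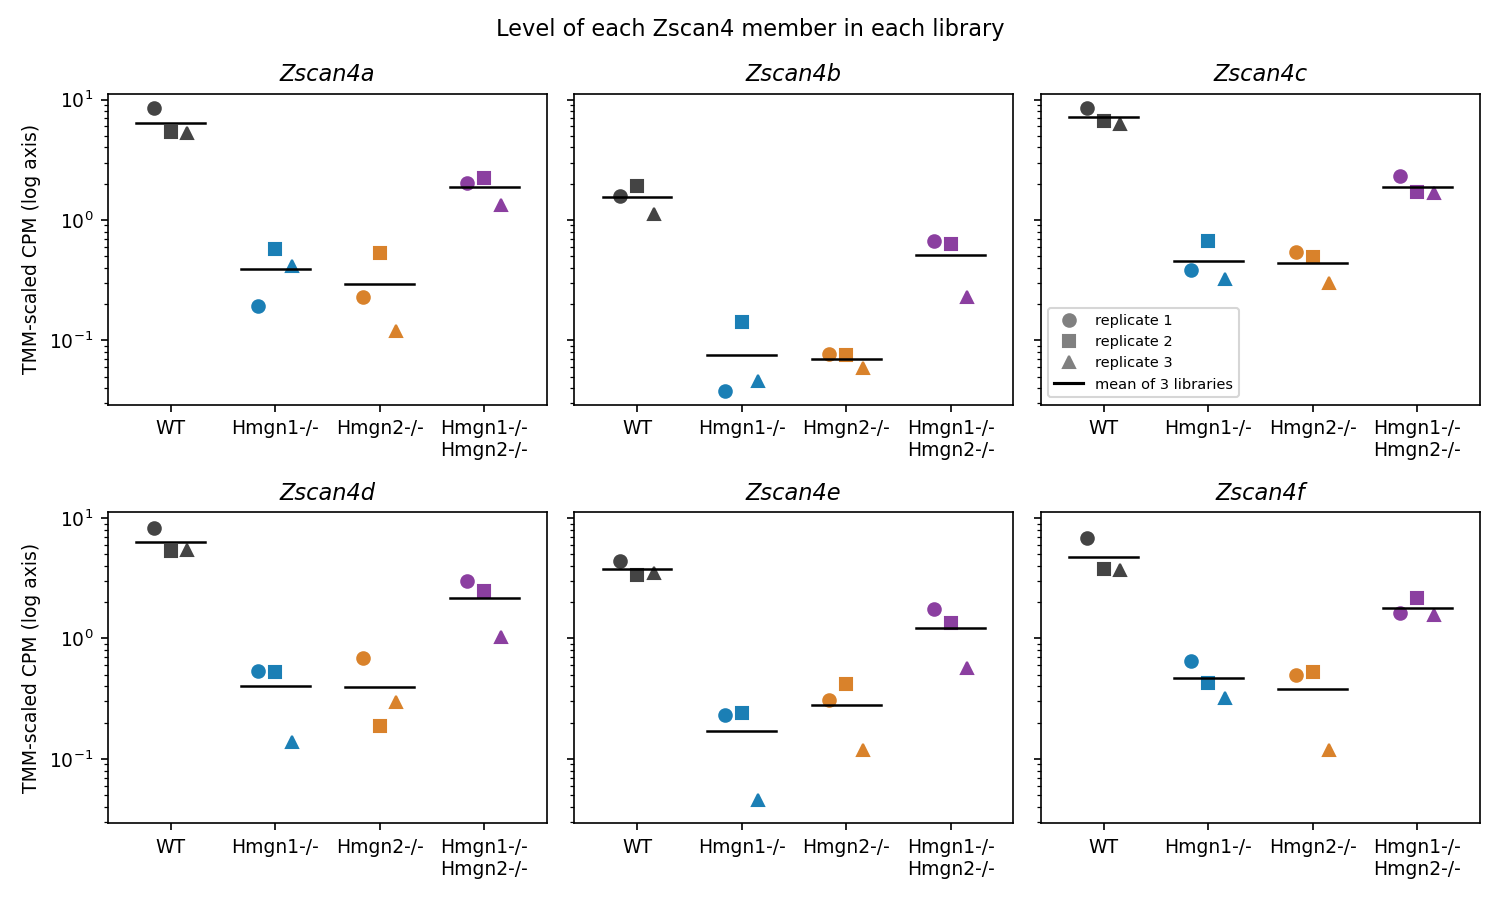
Level of each Zscan4 member in each library, in TMM-scaled CPM on a shared log axis, by genotype. Points are libraries and lines are means of 3. In all 6 panels WT libraries are highest, double knockout libraries are in the middle, and the single knockouts lie lowest with overlap between them.

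Per kilobase of exon in WT, Zscan4c had the highest level, at 3.13 ± 0.524 TMM-scaled CPM per kb (SD, n = 3). Zscan4a followed at 2.82 ± 0.810, Zscan4d at 2.79 ± 0.742, Zscan4f at 2.43 ± 0.900 and Zscan4e at 2.09 ± 0.321 CPM per kb. Zscan4b was lowest, at 0.856 ± 0.227 CPM per kb. Each neighbour in this order overlapped the next in its WT libraries except Zscan4e and Zscan4b, whose ranges were 1.86 to 2.46 and 0.616 to 1.07 CPM per kb.

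As a share of the family count, WT libraries gave 22.2% to 25.1% to Zscan4c, 20.6% to 22.5% to Zscan4a and 20.1% to 21.7% to Zscan4d. Zscan4f took 14.3% to 17.8%, Zscan4e 11.6% to 13.9% and Zscan4b 4.18% to 7.28%. In the double knockout the shares spread more widely for Zscan4c (16.2% to 26.2%), Zscan4d (16.1% to 26.3%), Zscan4e (8.93% to 15.4%) and Zscan4f (14.3% to 24.4%). Zscan4a took 17.9% to 20.9% there and Zscan4b 3.57% to 5.98%. The highest Zscan4f share, in replicate 3, had a Wilson 95% interval of 18.5% to 31.4%, above the WT shares of that gene. In the single knockouts the shares scattered widely, with Zscan4a at 9.43% to 32.1% in Hmgn1-/-. The counts behind them are few there, and the Wilson 95% interval of the highest of these, 9 of 28 counts, ran from 17.9% to 50.7%. Zscan4f took 16.7% to 32.1% in Hmgn1-/- (mean 24.6% against 15.6% in WT). Its highest value there, in replicate 1, had an interval of 21.1% to 45.5%. Replicate 2 of Hmgn1-/- lay inside the WT range for Zscan4f. Zscan4e took 3.57% to 11.3% in Hmgn1-/-, below its WT range, on 6, 5 and 1 counts in replicates 1 to 3. The Wilson 95% intervals of these shares were 5.29% to 22.6%, 4.02% to 19.9% and 0.633% to 17.7%, and each covered the WT range. A difference in make-up between genotypes was not tested.

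**Figure D3:**
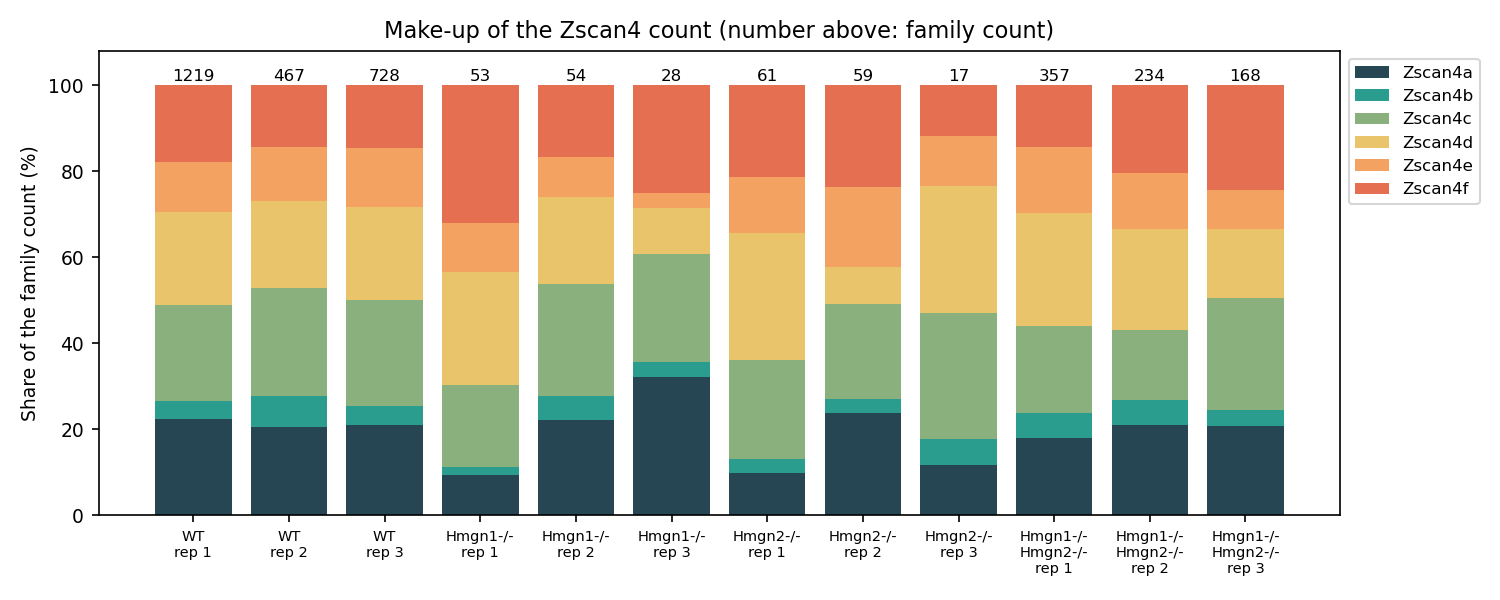
Share of each member in the Zscan4 count of each library, in percent, as stacked bars, with the family count written above. The make-up is even across the WT libraries (467 to 1219 counts) and scatters in the single knockouts (17 to 61 counts).

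The next question is whether the loss of both proteins differed from the loss of 1. The family sum was 4.82-fold higher in the double knockout than in Hmgn1-/- mESCs, with a log2 FC of 2.27 (SE 0.245, 95% interval 1.74 to 2.79, edgeR adjusted p = 4.08e-05). By size this was position 11 of 13706 tested entries. Of the 6 members, 5 passed the filter on low counts, of which 4 rose past the threshold, where 0.35% of 13710 genes tested did so. These 5 passed the filter through the double knockout libraries, the group where they are high, so the count is a description. With no filter 5 of the 6 members rose past the threshold, and the share of all genes was not counted for that fit. Zscan4a rose with a log2 FC of 2.27 (SE 0.368, edgeR adjusted p = 0.00264), Zscan4c with 2.07 (SE 0.323, edgeR adjusted p = 0.00192), Zscan4d with 2.42 (SE 0.454, edgeR adjusted p = 0.00922) and Zscan4f with 1.88 (SE 0.320, edgeR adjusted p = 0.00390). Zscan4e had a log2 FC of 2.80 with an edgeR adjusted p of 0.0108, which missed the limit. All 5 members tested were higher in every double knockout library than in every Hmgn1-/- library, where 7.83% of genes tested were. Zscan4b was not tested, and its pooled counts were 7.08-fold higher (95% interval 2.80 to 22.9, exact, counting error only). Leaving out Hmgn1-/- replicate 1 or double knockout replicate 2 left 1 member past the threshold, and leaving out Hmgn1-/- replicate 2 or replicate 3 left 2 members.

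Against Hmgn2-/-, the line from which it was made, the double knockout had a family sum 4.88-fold higher, with a log2 FC of 2.29 (SE 0.292, 95% interval 1.63 to 2.94). This was position 4 of 13812 tested entries by size, but the edgeR adjusted p of 0.0195 missed the limit. The 5 members tested had passed the filter on low counts through the double knockout libraries, where they are high. Of these 5, 0 passed the threshold in this edgeR fit, where 0.0434% of 13816 genes tested passed (0.0362% higher) and 4.44% had an unadjusted p under 0.05. All 5 had an unadjusted p under 0.05, from 4.48e-05 to 0.00272, with a log2 FC of 2.03 to 2.55. When 1 library was left out, Zscan4a ran from 2.27 to 3.29 and Zscan4d from 2.04 to 3.20. In this pair of genotypes same-numbered replicates deviated together in the counts (correlations 0.116 to 0.470), but the labels give no shared origin. With that number as a block, an alternative edgeR fit, the family sum passed (log2 FC 2.34, edgeR adjusted p = 5.58e-07). The link was read from the counts that were tested, so this pass is no separate support. In the blocked fit 5 of 5 members rose past the threshold (edgeR adjusted p from 0.00105 to 0.00839), where 0.217% of 13816 genes tested rose. DESeq2 without a block called 4 members, in a fit for which the share of all genes called was not counted. All 5 members tested were higher in every double knockout library than in every Hmgn2-/- library, where 5.32% of genes tested were, and the filter favours that direction for them. Without Hmgn2-/- replicate 3 the family sum had a log2 FC of 2.05 and passed the limit (edgeR adjusted p = 0.00318), and 0 of the 5 members passed (edgeR adjusted p from 0.0383 to 0.454).

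Between the single knockouts the family sum had a log2 FC of -0.03 in Hmgn2-/- against Hmgn1-/- (SE 0.327, edgeR adjusted p = 1.00). The 95% interval of -0.750 to 0.696 allows a difference of either sign of up to about that size on the log2 scale. Without Hmgn2-/- replicate 3 the log2 FC was 0.22 (edgeR adjusted p = 0.914). An exact two-sided permutation test of the sum gave p = 0.8. Only Zscan4c, Zscan4d and Zscan4f passed the filter on low counts, and 0 of these 3 passed the threshold (edgeR), where 0.176% of 13648 genes did. Of all genes tested 3.2% had an unadjusted p under 0.05, and of the 3 members 0 had, with 0 called by DESeq2 too. All 3 overlapped between the groups, as did the sum, where 8.07% of genes did not overlap. The pooled family counts were 137 and 135.

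**Figure D4:**
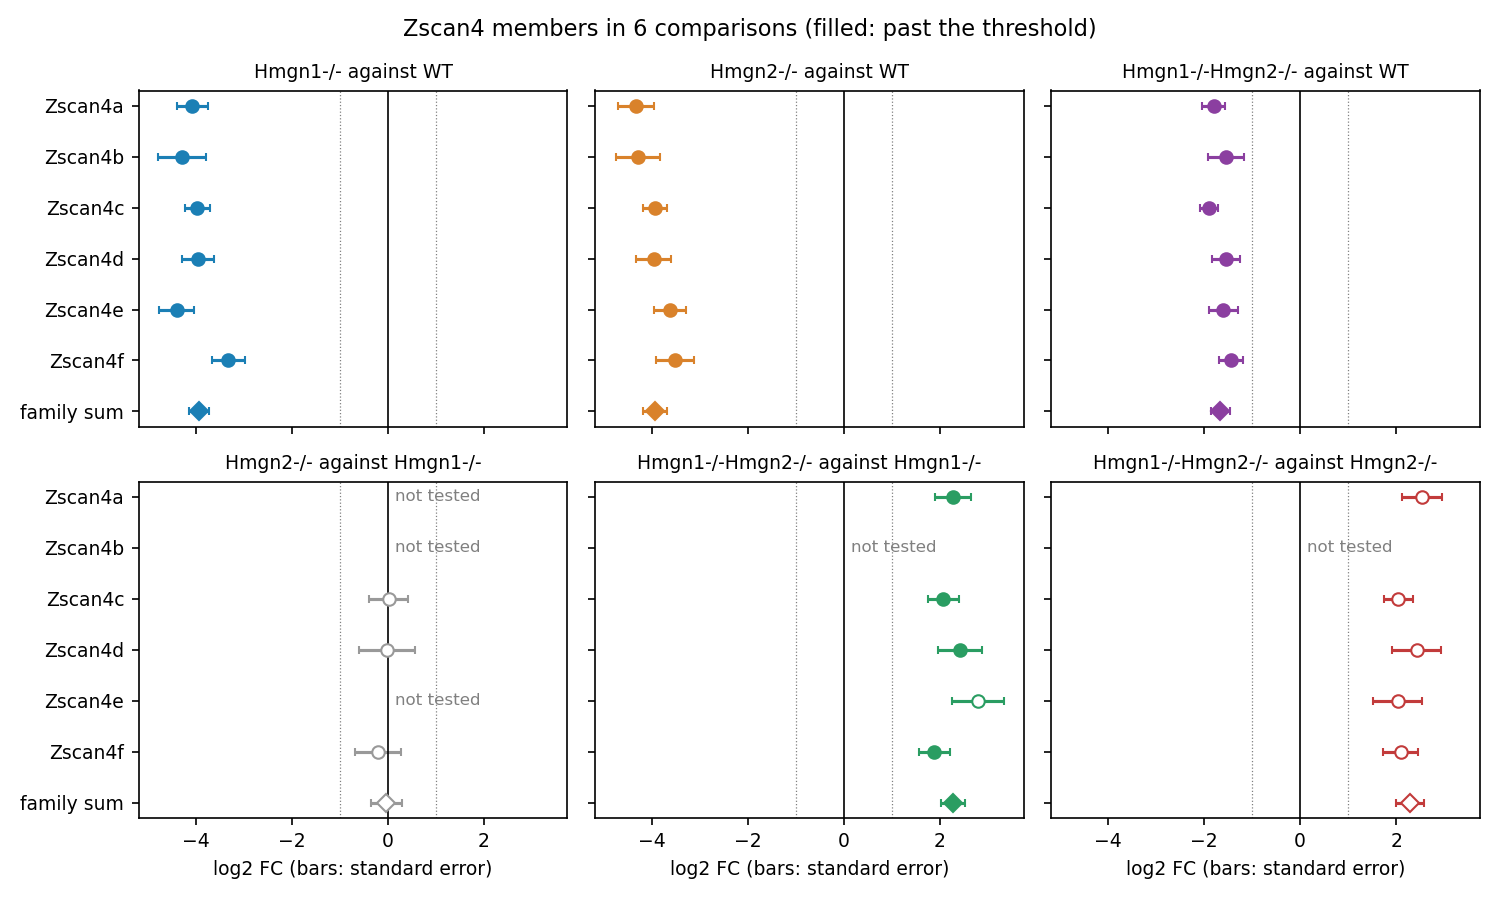
Log2 FC of each Zscan4 member and of the family sum in 6 comparisons, with bars for the standard error of the edgeR fit. Filled marks passed the threshold without a replicate block, and dotted lines mark a log2 FC of 1 in size. Values lie near -4 for both single knockouts against WT, between -1.89 and -1.44 for members of the double knockout, and between 1.88 and 2.80 for members of the double knockout against either single knockout.

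A test of additivity asks whether the Hmgn1 edit acted alike in WT and in Hmgn2-/- mESCs. If the log2 changes of the single knockouts added up, the departure would be 0. For the family sum it was 6.21 (SE 0.404, 95% interval 5.36 to 7.07, edgeR adjusted p = 4.36e-07 in a fit of all 12 libraries), position 25 of 14318 entries by size. All 6 members had a positive departure past the threshold, from 5.41 for Zscan4f to 7.04 for Zscan4b, where 2.98% of 14323 genes tested did. The members passed the filter on low counts through the WT and double knockout libraries, where they are high. A high level there also makes the departure positive, so the count is a description. Without Hmgn2-/- replicate 3 the value for the sum was 5.98 (edgeR adjusted p = 1.11e-07). The design has 1 clone per knockout genotype, so the effect of the double loss and a property of that clone cannot be told apart. Hmgn1 RNA was also lower in the double knockout (20.9 CPM) than in Hmgn1-/- (140 CPM), and the part of this difference was not tested.

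Other genes of the 2-cell-like state were read from a list of 36, of which 34 are in the table and 31 had a count in WT. In the comparisons with WT 20, 21 and 21 of them passed the filter on low counts, mostly through the WT libraries. In Hmgn1-/- 18 were lower past the threshold, in Hmgn2-/- 18 and in the double knockout 16, and 0 were higher in any (edgeR), where 5.08%, 4.38% and 5% of all genes tested were lower. With no filter the counts of the list were 23, 22 and 19, in fits for which the share of all genes called was not counted. The median log2 FC was -4.04 in Hmgn1-/-, -3.84 in Hmgn2-/- and -1.96 in the double knockout. The summed level of the list was 66.1 to 78.6 CPM in WT, 24.0 to 30.5 CPM in Hmgn1-/-, 22.3 to 29.7 CPM in Hmgn2-/- and 37.3 to 40.8 CPM in the double knockout, and most of it in the knockouts came from Zfp365 and Ddit4l, which were not called.

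Usp17lb, a deubiquitinase of a multicopy family, was at 3.20 ± 0.878 CPM in WT, 0.118 ± 0.119 CPM in Hmgn1-/-, 0.221 ± 0.165 CPM in Hmgn2-/- and 0.790 ± 0.255 CPM in the double knockout (SD, n = 3 each). Gm5662 was at 4.56 CPM in WT, 0.164 and 0.287 CPM in the single knockouts and 1.15 CPM in the double knockout. Tcstv3, a gene named for the 2-cell stage, was at 1.40 CPM in WT and 0.0574, 0.0396 and 0.309 CPM in Hmgn1-/-, Hmgn2-/- and the double knockout. The related Tcstv1 had 0 counts in the 3 Hmgn2-/- libraries, which makes it at least 15.2-fold lower than in WT (3 counts over the group). Like Zscan4, these belong to multicopy families, and single copies are uncertain.

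The 2 listed genes tested that passed in no comparison with WT, Ddit4l and Zfp365, were also the 2 with the highest levels. Ddit4l was at 6.54 CPM in WT and 3.74, 4.28 and 4.81 CPM in Hmgn1-/-, Hmgn2-/- and the double knockout. Zfp365 was at 25.5 CPM in WT and 20.9, 18.5 and 23.4 CPM in the knockouts.

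Of the known activators of the state 4 were tested and 0 were called in any comparison, which with so few genes is near the share of all genes called. Dppa2, which with Dppa4 binds the Dux gene, was at 162 ± 12.4 CPM in WT and 172, 175 and 183 CPM in Hmgn1-/-, Hmgn2-/- and the double knockout. Dppa4 was at 174 ± 7.15 CPM in WT and 208, 197 and 196 CPM in the knockouts, and its log2 FC of 0.26 in Hmgn1-/- was under the fold limit (edgeR adjusted p = 0.00716). Nelfa and Tbx3 had log2 FCs of -0.26 to 0.10 against WT. Dux was not analysed here. Of the 23 listed repressors, among them chromatin factors that silence the state, 23 were tested and 0 passed the threshold in any comparison, with a median log2 FC against WT of -0.04, -0.01 and -0.04. Since 5.08%, 4.38% and 5% of all genes tested were lower and 0.898%, 0.776% and 1.3% higher against WT, a count of 0 in 23 is near the share over all genes and is no result about the list. Below the fold limit but past the p limit (edgeR), Ehmt2 had a log2 FC of 0.36 in Hmgn2-/- and 0.35 in the double knockout, and Myc had 0.36 in Hmgn1-/- and 0.49 in the double knockout. Smchd1 had 0.32 in the double knockout, and Uhrf1 had -0.25 in Hmgn1-/- and -0.27 in the double knockout.

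Of 14 genes of telomere maintenance and recombination, 13 were tested and 1 was lower past the threshold in each comparison with WT, where 5.08%, 4.38% and 5% of all genes tested were. A count of 1 in 13 is near those shares and is no result about the list. That gene was Smc1b, a meiotic cohesin subunit, which fell from 10.0 ± 0.741 CPM in WT to 1.15 ± 0.199 CPM in Hmgn1-/-, 1.92 ± 0.819 CPM in Hmgn2-/- and 2.37 ± 0.465 CPM in the double knockout (SD, n = 3 each). Its log2 FC was -3.13, -2.43 and -2.09 (edgeR adjusted p = 4.99e-08, 5.37e-05 and 7.22e-07). Terf2, a protein that caps telomeres, rose by less than the fold limit, with a log2 FC of 0.46, 0.52 and 0.45. Terf1, another telomere-capping protein, had values of -0.31, -0.35 and -0.26 (edgeR adjusted p = 0.00400, 0.0233 and 0.0162). Tert, the catalytic subunit of telomerase, was at 14.4 CPM in WT and 16.2, 16.8 and 17.5 CPM in the knockouts, with no call.

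Of 11 other Zscan genes, which share the SCAN and zinc finger domains but lie outside the cluster, 11 were tested and 1 was lower past the threshold in each comparison with WT, a count that is likewise near the share over all genes. Zscan5b fell with a log2 FC of -1.62 in Hmgn1-/-, -1.49 in Hmgn2-/- and -1.75 in the double knockout (edgeR adjusted p = 0.00136, 0.00468 and 1.11e-04). Unlike the Zscan4 sum, its level in the double knockout, 1.14 ± 0.314 CPM, overlapped that in Hmgn1-/- (1.26 ± 0.637 CPM) and in Hmgn2-/- (1.36 ± 0.622 CPM; SD, n = 3 each). Zscan10, a pluripotency factor, was at 211 CPM in WT and 208 to 237 CPM in the knockouts, with no call.

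**Figure D5:**
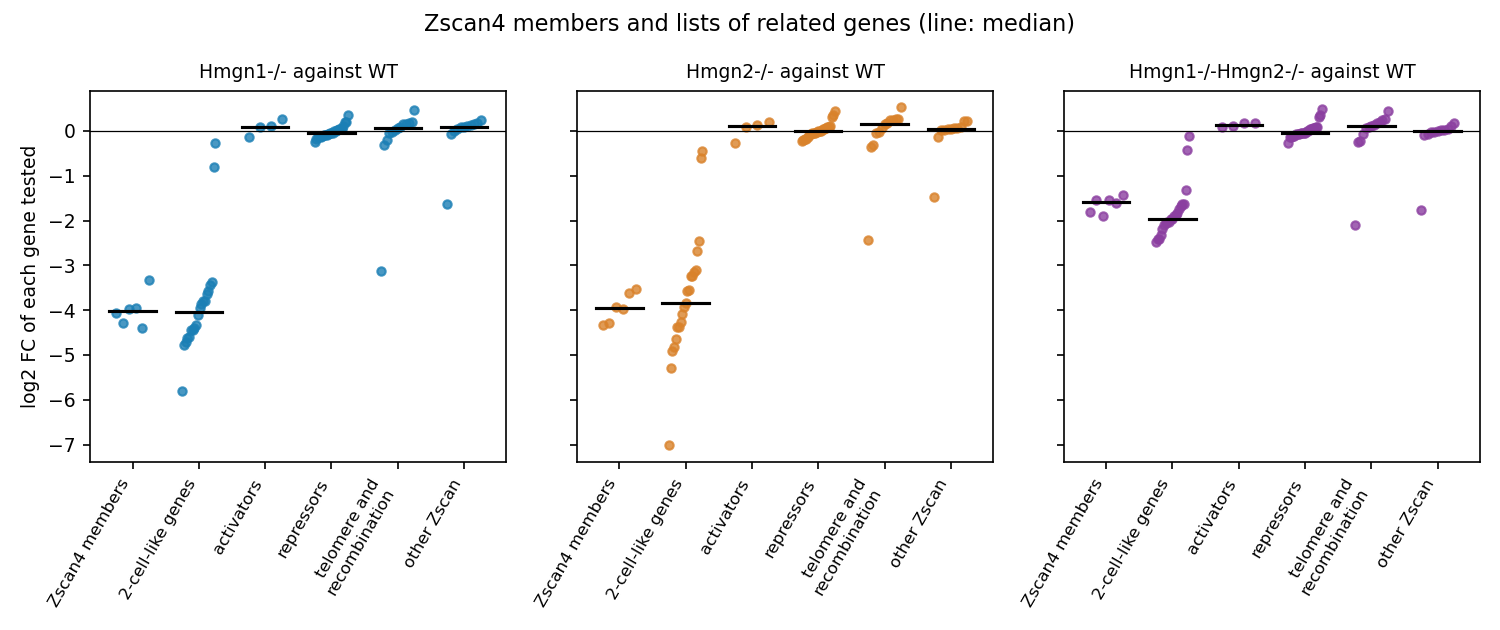
Log2 FC against WT of the 6 Zscan4 members and of the tested genes of 5 lists, in Hmgn1-/-, Hmgn2-/- and the double knockout. Points are genes and lines are medians. Medians of Zscan4 and the 2-cell-like genes lie near -4 in the single knockouts and at -1.58 and -1.96 in the double knockout, with Ddit4l and Zfp365 closer to 0, and the other lists lie near 0 except for Smc1b and Zscan5b. The lowest point in Hmgn2-/- is Tcstv1, with 0 counts there.

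Within 1 Mb of the cluster RefSeq lists 113 other genes, of which 29 are in the table and 28 had no count in any library. The remaining gene, Zik1, a zinc finger gene, had a log2 FC of 0.06, -0.01 and -0.05 against WT in Hmgn1-/-, Hmgn2-/- and the double knockout, with no call.

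Markers of other cell types moved with genotype as well. Of 8 primitive endoderm markers, 6 rose in Hmgn1-/-, 6 in Hmgn2-/- and 8 in the double knockout (edgeR), where 0.898%, 0.776% and 1.3% of genes tested rose. Their summed level was 80.0 to 103 CPM in WT, 241 to 278 CPM in Hmgn1-/-, 209 to 307 CPM in Hmgn2-/- and 482 to 539 CPM in the double knockout. This order differs from that of Zscan4, with the double knockout farthest from WT. Of 7 trophoblast markers 3 fell in each comparison with WT (Hand1, Gata3 and Krt7), where 5.08%, 4.38% and 5% of all genes tested fell, and the summed level was 73.2 to 99.2 CPM in WT and 54.0 to 66.2 CPM in the knockouts. Of 8 fibroblast markers Lum was at 0 in every library and Dcn near 0, and 3, 3 and 4 fell against the same shares of all genes, and the summed level was 22.4 to 27.3 CPM in WT and 9.12 to 12.5 CPM in the knockouts. The part of these cells in the Zscan4 values was not tested.

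The genes with the profile over the 12 libraries most like the family sum were found by the root mean square difference of centred log2(CPM + 0.5) values, among the 11552 genes whose mean count was 50 or more. They were Zfp951 (0.739), Slc39a8 (0.812), Pnma5 (0.812), Smc1b (0.898), 2410076I21Rik (0.900), Hormad2 (0.915), Fndc1 (0.916) and Dsp (0.921). Hormad2 and Smc1b are meiotic chromosome genes, Slc39a8 a metal ion transporter and Dsp a desmosome protein. Of the 2-cell-like list only Ddit4l and Zfp365 reached that mean count, and the rest of the list was not compared.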

How the data were processed

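RNA-Seq read counts per gene were deposited by the authors as raw counts, 1 table per genotype with 3 libraries each. Per the labels and the methods of the study, poly-A selected paired-end reads were aligned with STAR to mm10, and DESeq2 is also named in the submitters' processing notes. The counting program, its annotation, its use of strand and its handling of reads that match several copies are not given in the sources used here. Columns of per-sample values left unused numbered 0.

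Counts were scaled by TMM and tested, after filterByExpr (minimum count 10), with the quasi-likelihood test of edgeR 4.0.16 in R 4.3.3 (limma 3.58.1 installed) on the 2 genotypes compared. Additivity was tested over all 12 libraries. Benjamini-Hochberg adjustment ran over all genes tested. A call needed an adjusted p under 0.01 and a log2 FC of at least 1 in size, the limits of the study. For the family sum the 6 members were replaced by 1 summed entry before the fit. The SE is the log2 FC divided by the root of F, and 95% intervals use the degrees of freedom of edgeR. Wilson intervals on shares and exact binomial intervals on ratios of pooled counts cover counting error only. DESeq2 1.42.0 was an alternative, and the procedure was tested on simulated data.

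The main fits did not use the replicate number, and the replicate block was an alternative run in every comparison. The labels give no shared origin for same-numbered replicates, so a link between them was read from the counts themselves. It was taken to exist where every correlation of their deviations from the group means was over 0.1. This held for the double knockout against WT (0.144 to 0.208), Hmgn2-/- against Hmgn1-/- (0.149 to 0.316) and the double knockout against Hmgn2-/- (0.116 to 0.470). The lowest value was 0.0811, 0.0648 and 0.0577 in Hmgn1-/- against WT, Hmgn2-/- against WT and the double knockout against Hmgn1-/-.

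Beside the 6 members and the genes of the lists, the genes named were the 8 most like the family sum among those with a mean of at least 50 counts, on log2(CPM + 0.5). The members and lists were chosen with earlier results of these data known. Coordinates are from GENCODE M21 (GRCm38) and promoter sequences from RefSeq (GRCm38.p6).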

Additional observations from a re-analysis of the deposited data

Results flagged for a closer look

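The change of the Zscan4 family with the Hmgn1 edit differed between the WT and the Hmgn2-/- background, by a test of the difference itself. Each knockout genotype is 1 clone, so an effect of Hmgn1 loss and a property of a clone cannot be told apart. Hmgn1 RNA was at 140 CPM in Hmgn1-/- and 20.9 CPM in the double knockout, and the part of this difference was not tested. The family sum had a log2 FC of -3.93 in Hmgn1-/- against WT and of 2.29 in the double knockout against Hmgn2-/-. The second of these had an edgeR adjusted p of 0.0195, which missed the limit of 0.01. It ran from 0.00318 to 0.17 when 1 library was left out. This comparison passed the limit in an alternative edgeR fit with the replicate number as a block. That link was read from the same counts and is not given by the labels, so the pass is no separate support. The difference, as an interaction term of edgeR over 12 libraries, was 6.21 (SE 0.404, adjusted p = 4.36e-07). For single members it was 6.62 for Zscan4a, 7.04 for Zscan4b, 6.02 for Zscan4c, 6.39 for Zscan4d, 6.43 for Zscan4e and 5.41 for Zscan4f, with edgeR adjusted p from 4.34e-07 to 4.80e-05. Leaving out 1 library at a time gave 5.98 to 6.43 for the sum.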

How the results depend on the processing

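In the comparisons with WT the family sum kept its direction and its call under every alternative run. Leaving out 1 library at a time gave log2 FCs of -4.16 to -3.71 in Hmgn1-/-, -4.12 to -3.71 in Hmgn2-/-, -1.83 to -1.44 in the double knockout, 2.05 to 2.49 in the double knockout against Hmgn1-/- and 5.98 to 6.43 for additivity. Over all alternatives, single members ran from -5.03 to -2.95 in Hmgn1-/- and from -5.08 to -3.15 in Hmgn2-/- against WT. In the double knockout they ran from -2.07 to -1.075 against WT, 1.68 to 3.14 against Hmgn1-/- and 1.64 to 3.29 against Hmgn2-/-. The double knockout against Hmgn2-/- depended on the fit. There the sum was 2.31 with 4 members called by DESeq2, 2.29 with 2 members without a filter, 2.28 with 1 member in a single fit of 12 libraries and 2.34 with 5 members with the replicate block. Leaving out 1 library gave 2.05 to 2.50 (edgeR adjusted p from 0.00318 to 0.17). Beside these calls, the replicate block added that of Zscan4e in the double knockout against Hmgn1-/- (edgeR adjusted p = 7.80e-05), where the numbers did not pair the samples, took the 2-cell-like genes called in Hmgn2-/- from 18 to 17 and changed no other call of a member or the sum. Members called in the double knockout against Hmgn1-/- ran from 1 to 5 when 1 library was left out, and a single fit of 12 libraries lost Zscan4d and Zscan4f and gained Zscan4e. Between the single knockouts the sum ran from -0.25 to 0.22, Zscan4c from -0.17 to 0.36, Zscan4d from -0.78 to 0.37 and Zscan4f from -0.48 to 0.13 when 1 library was left out, and Zscan4c was -0.017 under DESeq2 and -0.022 under the block. The cause of these shifts was not tested. Counts of 2-cell-like genes that fell stayed at 15 to 23, 15 to 22 and 14 to 19 over alternatives, which, like those for additivity of single members, were chosen after seeing the data. An alternative with Zscan4 pseudogenes was not run. Few counts limit single members in the single knockouts. Apart from the main fits, the share of all genes called was counted only for the replicate block in the double knockout against Hmgn2-/-.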

Other observations

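Within genotypes, Zscan4 members varied together to different degrees over the 12 libraries. The correlation of deviations from the genotype means ran from 0.209 for Zscan4b with Zscan4f to 0.790 for Zscan4d with Zscan4e, and the points share library and depth.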
